A study of Mus musculus with 2 samples.

Results

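The 10 genes described here encode the calprotectin subunits (S100a8, S100a9) and other abundant proteins of mouse neutrophils (Retnlg, Ngp, Camp, Ltf, Wfdc21, Ifitm6, G0s2, Lcn2). They were found by symbol among the 32285 genes of the count tables, and all 10 had UMIs. The tumours came from mice given azoxymethane and dextran sulphate sodium (AOM/DSS), which induces colorectal tumours in an inflamed colon. A library labelled STK25 wKO held tumours of STK25 global knockout mice and a library labelled WT held tumours of wild-type mice, both after AOM/DSS. Tumours were pooled within each group before dissociation, so each genotype had 1 library and differences between genotypes are without replicates. Strain, sex, age, number of mice and the knockout allele were not given in the sources used here. The design text names a sort by mCherry signal that the study's methods do not describe, and what was sorted is unknown here. The 10 genes were selected on their UMI levels in these same libraries, so their ratios describe the values that chose them and carry no test.

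Neutrophils make their granules in the bone marrow in a fixed order. Azurophil granules are filled first, at the promyelocyte stage, then specific granules, with lactoferrin (Ltf), cathelicidin (Camp), neutrophilic granule protein (Ngp) and lipocalin 2 (Lcn2), and last gelatinase granules. Transcripts of the specific granule proteins fall as the cell matures, while S100a8 and S100a9, which form the zinc- and calcium-binding complex calprotectin in the cytosol, stay high in blood neutrophils. In inflamed colon, calprotectin and lipocalin 2 are used as stool markers of neutrophil influx, and colonic epithelium can also make lipocalin 2.

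S100a8 (chr3:90668978-90670035) and S100a9 (chr3:90692632-90695721) lie on mouse chromosome 3, with 22596 bases between them. Camp (chr9:109847379-109849617), Ngp (chr9:110419747-110423012) and Ltf (chr9:111019271-111042767) lie on chromosome 9. Retnlg is at chr16:48872621-48874496, Wfdc21 at chr11:83746940-83752642, Ifitm6 at chr7:141015699-141017924, G0s2 at chr1:193272161-193273217 and Lcn2 at chr2:32384633-32388252. All 10 are protein-coding in GENCODE (GRCm38), and none overlaps another gene on its own strand. G0s2 overlaps Lamb3 on the other strand.

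Promoters are shown because these genes were high in the same cells. RefSeq (GRCm38.p6) gave the 250 bases before the start of 9 of the 10 genes, all but Wfdc21. The windows were searched on both strands for TTGCNNAA (bound by C/EBP factors, of which C/EBP-epsilon drives specific granule genes in mouse and human), GAGGAAG (PU.1), a 10-base NF-kB motif and TATAAA. TTGCNNAA was found in 5 of 9 windows (S100a9, Retnlg, Ngp, Ltf and Lcn2), against 9.56% of all 32851 promoter windows. GAGGAAG was found in S100a8 and Lcn2, against 10.6% of all windows, TATAAA in S100a8 and Ifitm6, against 12.4%, and the NF-kB motif in 0 of 9, against 0.356%. No 2 of these motifs overlapped in the 9 windows. The Lcn2 window (chr2:32387740-32387989) and the Ifitm6 window (chr7:141016893-141017142) lie inside the spans that GENCODE gives these genes. The matches in them are thus not upstream of those spans. The Lcn2 window opens in an exon, which leaves no stretch to show, and the G0s2 window has 10 bases before an exon. Capitals mark a match on either strand, and each sequence stops before the first base that GENCODE places in an exon. The stretches are chr3:90695722-90695971 (minus strand), chr16:48872358-48872607 (plus), chr9:110419558-110419746 (plus), chr9:111019042-111019270 (plus), chr3:90668821-90668977 (plus) and chr9:109849618-109849706 (minus).
S100a9: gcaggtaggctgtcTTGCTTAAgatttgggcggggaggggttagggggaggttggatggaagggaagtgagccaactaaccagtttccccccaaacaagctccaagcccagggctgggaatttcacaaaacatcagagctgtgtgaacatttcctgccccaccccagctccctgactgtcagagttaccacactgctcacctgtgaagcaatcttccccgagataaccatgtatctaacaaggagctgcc
Retnlg: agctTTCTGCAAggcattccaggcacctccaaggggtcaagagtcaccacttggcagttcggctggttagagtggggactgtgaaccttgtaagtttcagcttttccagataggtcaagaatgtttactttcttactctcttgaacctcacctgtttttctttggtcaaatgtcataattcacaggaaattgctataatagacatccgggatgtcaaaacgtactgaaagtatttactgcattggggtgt
Ngp: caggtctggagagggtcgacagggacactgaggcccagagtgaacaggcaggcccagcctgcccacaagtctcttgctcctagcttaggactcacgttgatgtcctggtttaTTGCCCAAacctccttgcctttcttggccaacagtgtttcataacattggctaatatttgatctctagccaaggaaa
Ltf: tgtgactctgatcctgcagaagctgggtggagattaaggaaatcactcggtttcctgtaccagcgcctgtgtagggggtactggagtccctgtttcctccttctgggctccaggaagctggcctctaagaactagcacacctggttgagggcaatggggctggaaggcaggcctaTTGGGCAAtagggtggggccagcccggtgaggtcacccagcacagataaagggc
S100a8: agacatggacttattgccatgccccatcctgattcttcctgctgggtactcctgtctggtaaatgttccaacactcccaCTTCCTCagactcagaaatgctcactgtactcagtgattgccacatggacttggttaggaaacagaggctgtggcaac
Camp: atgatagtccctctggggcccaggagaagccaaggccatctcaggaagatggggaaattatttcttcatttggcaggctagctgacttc
The TTGCNNAA match shown starts 138 bases before the RefSeq start in Ngp, 75 in Ltf, 236 in S100a9 and 246 in Retnlg. Ngp had a second one 11 bases before that start, and S100a8 its TATAAA at 30 bases, both past the stretch shown. The Camp window held none of these letters.

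Unique molecular identifiers (UMIs), each standing for 1 captured transcript read at its 3′ end, were counted per gene and cell, and levels are UMIs per cell or UMIs per 1000000 (CPM). After the cell filter 13883 cells remained in the STK25 knockout library, with 65805551 UMIs and a median of 2091 per cell, against 12270 cells, 38271600 UMIs and a median of 1383 in the WT library. Stk25 was at 127 CPM in the STK25 knockout library and 118 CPM in the WT library. If the allele leaves the 3′ end in place, that checks nothing, so each library goes by its label. Of the cell barcodes, 230 occurred in both libraries; without them the members had 253 UMIs per neutrophil in the STK25 knockout library and 21.5 in the WT library, close to the values with them. Intervals in brackets are exact at 95% and cover counting error only. Haemoglobin UMIs, a sign of blood, came to 0.197 per lymphocyte in the STK25 knockout library and 0.00543 in the WT library; their part in the results was not tested.

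Neutrophils were found by clustering with the 10 members left out, so that the members did not define the cells. A single cluster had all 10 of the markers listed for neutrophils and no member among them. It held 1597 cells (11.5% of cells) in the STK25 knockout library and 218 (1.78%) in the WT library, at median depths of 1661 and 1184 UMIs. Csf3r, the G-CSF receptor, had a UMI in 56.4% of these cells in the STK25 knockout library and 48.2% in the WT library, against 1.38% and 0.598% of lymphocytes. The 10 markers summed to 8255 CPM in the STK25 knockout library and 8731 CPM in the WT library. Ly6g, the surface antigen of mouse neutrophils, stood apart among them at 526 CPM and 41.4 CPM. Of 14 marker sets of other cells, the highest was the 9 epithelial markers, at 3286 CPM in the STK25 knockout library and 2754 CPM in the WT library, none of them at 0. The 5 erythroid markers summed to 103 and 0 CPM, with 2 and 5 of them at 0. The part of these in the results was not tested.

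Within neutrophils, the 10 members took 11.5% of all UMIs in the STK25 knockout library and 1.60% in the WT library. Of the 10, 9 had a log2 ratio of at least 1 upwards, and G0s2 lay just under it. Of all 6652 genes with at least 50 UMIs in neutrophils, 8.93% had such a ratio upwards. The median ratio over those genes was −0.14. Centred on it, all 10 members passed, with G0s2 at 1.09.

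Calprotectin made up most of this. S100a9 was at 53322 CPM in STK25 knockout neutrophils, where no gene had more UMIs, and at 7029 CPM in WT neutrophils (log2 ratio 2.92, interval 2.86 to 2.99). S100a8 was at 32977 and 4247 CPM (log2 ratio 2.96, interval 2.88 to 3.04). Both libraries had nearly the same proportion of the subunits, 1.62 UMIs of S100a9 per UMI of S100a8 in STK25 knockout neutrophils and 1.66 in WT neutrophils. Cells differed widely. The sum of both subunits per neutrophil had a median of 36 UMIs in the STK25 knockout library (10th to 90th percentile 2 to 612, highest 1905) and 2 in the WT library (0 to 30, highest 428). Counts of 36 or more were found in 800 of 1597 STK25 knockout neutrophils and 20 of 218 WT neutrophils.

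Other members differed in level too. Retnlg, a resistin-like protein of myeloid cells, was at 13505 CPM in STK25 knockout neutrophils and 879 CPM in WT neutrophils (log2 ratio 3.94, interval 3.76 to 4.12). G0s2, an inhibitor of the triglyceride lipase ATGL, was at 6785 and 3519 CPM (log2 ratio 0.95, interval 0.86 to 1.04), the smallest ratio of the 10. Wfdc21, a whey acidic protein domain gene, had 2895 UMIs in STK25 knockout neutrophils and 4 in WT neutrophils, or 821 and 13.8 CPM (log2 ratio 5.90, interval 4.54 to 7.77). Ifitm6, of the interferon-induced transmembrane family, had 3757 and 6 UMIs (log2 ratio 5.69, interval 4.56 to 7.13). G0s2 is the member that both libraries shared most evenly, with a UMI in 79.1% of STK25 knockout neutrophils and 56.4% of WT neutrophils.

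Among specific granule transcripts, Ngp and Camp were almost missing from WT neutrophils. Ngp had 6163 UMIs in STK25 knockout neutrophils (1748 CPM) and 1 UMI in WT neutrophils (log2 ratio 8.99, interval 6.51 to 14.29). Camp, the cathelicidin precursor, had 1867 and 0 UMIs. Against a floor of 3 counts in the WT sum, it was at least 51.2-fold higher in STK25 knockout neutrophils. Lcn2, which binds bacterial siderophores, was at 3464 CPM in STK25 knockout neutrophils and 221 CPM in WT neutrophils (log2 ratio 3.97, interval 3.62 to 4.35). Ltf, the iron-binding lactoferrin, had 1017 and 18 UMIs, or 289 and 62.0 CPM (log2 ratio 2.22, interval 1.55 to 2.98). With 0 of 290100 UMIs in WT neutrophils, that floor allows a Camp level of up to 10.3 CPM there.

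**Figure D1:**
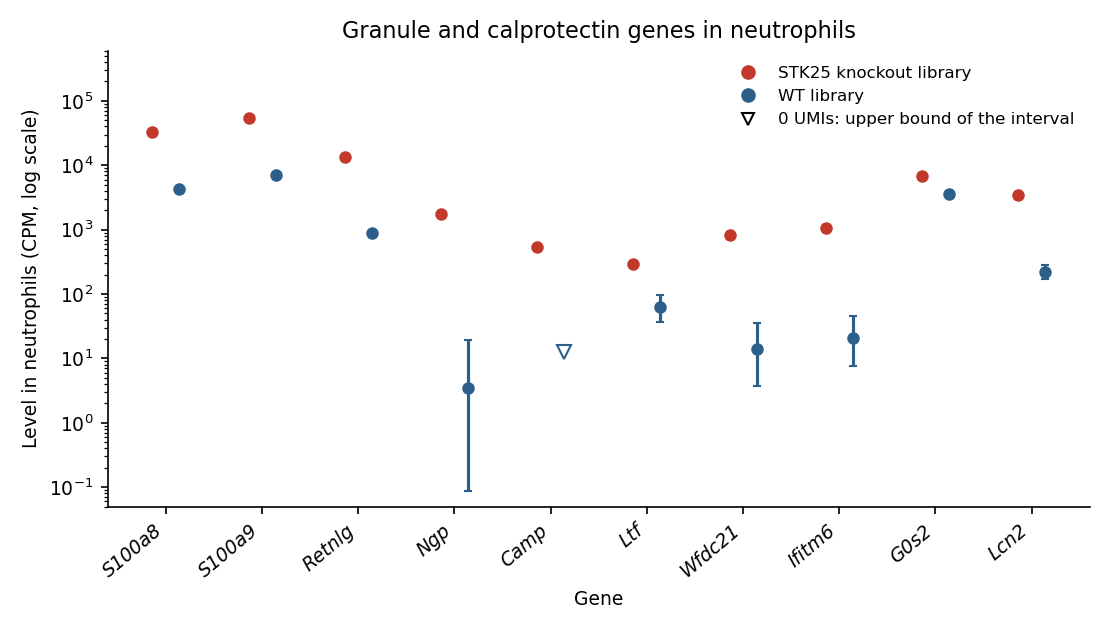
Level of each of the 10 members in neutrophils (CPM, log axis) in the STK25 knockout library (red, left of each pair) and the WT library (blue); points are values from 1 library each and bars are exact 95% Poisson intervals. Every red point lies above its blue partner, by the least for G0s2 (6785 and 3519 CPM), and the open triangle marks the upper bound for Camp in WT, which had 0 UMIs.

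Few cells carried the specific granule UMIs. In the STK25 knockout library 21.5% of neutrophils (344 of 1597; 19.5% to 23.6%) had at least 1 UMI of Ngp, Camp or Ltf, against 4.59% (10 of 218; 2.22% to 8.27%) in the WT library. Lymphocytes, which do not make these proteins, had such a UMI in 3.95% and 0.616% of cells, at median depths of 1540 and 1238 UMIs. At least 3 UMIs were found in 158 STK25 knockout neutrophils (9.89%; 8.47% to 11.5%) and in 2 WT neutrophils (0.917%; 0.111% to 3.27%), and at least 10 in 85 and 0. Both WT cells held Ltf only. With every cell thinned to 500 UMIs, which left out no neutrophil, 10.3% of STK25 knockout neutrophils and 0.917% of WT neutrophils had at least 1.

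The other members were graded along the specific granule count within the STK25 knockout library. Neutrophils with 0, 1 to 2, 3 to 9 and 10 or more such UMIs numbered 1253, 186, 73 and 85. Along these ranges Lcn2 was at 1474, 3704, 6763 and 12058 CPM, and Ifitm6 at 329, 1122, 2264 and 4304 CPM. S100a8 went through 21080, 38854, 57581 and 75447 CPM. Retnlg levelled off, at 7245, 19144, 29954 and 30282 CPM, and G0s2 varied least, at 6052, 7456, 8994 and 8550 CPM. The median depth was 1483, 2509, 3463 and 4629 UMIs along the same ranges, and a deeper cell more easily shows a specific granule UMI, so depth moves with the ranges and its part in these levels was not tested.

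Some other genes moved with the ranges, in both directions. Of the genes named here, Cebpe, Mmp8, Chil3, Cd177, Cxcr4 and Elane were picked after their values were seen. How many of all genes moved as much was not counted. From the range with 0 to that with 10 or more UMIs, Cebpe, the gene of C/EBP-epsilon, was at 2.17 and 41.0 CPM, Mmp8 (neutrophil collagenase) at 116 and 885 CPM, Chil3 (a chitinase-like protein) at 12.6 and 586 CPM and Cd177 at 78.9 and 759.9 CPM. Il1b, which encodes interleukin 1 beta, was at 6736 and 3035 CPM, and Cxcr4, a chemokine receptor that retains neutrophils in marrow, at 121 and 26.5 CPM. Elane, which encodes neutrophil elastase of azurophil granules, had 0 UMIs in every range, and Mki67, a proliferation gene, was at 39.0 and 16.9 CPM. Over all STK25 knockout neutrophils Cebpe had 24 UMIs, Mki67 125 and Cxcr4 340. Their levels in the range with 10 or more therefore rest on few UMIs.

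Neutrophils of the STK25 knockout library without any Ngp, Camp or Ltf UMI still had higher levels of the other members. In 1253 STK25 knockout and 208 WT cells of that kind, S100a8 was at 21080 and 3682 CPM (log2 ratio 2.52, interval 2.43 to 2.61). Retnlg had a log2 ratio of 3.33, Lcn2 of 2.90, Wfdc21 of 5.34, Ifitm6 of 3.88 and S100a9 of 2.40. G0s2, at 6052 and 3492 CPM, had a log2 ratio of 0.79, so 6 of these 7 members reached 1, against 7.74% of genes with at least 50 UMIs in the same cells.

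**Figure D2:**
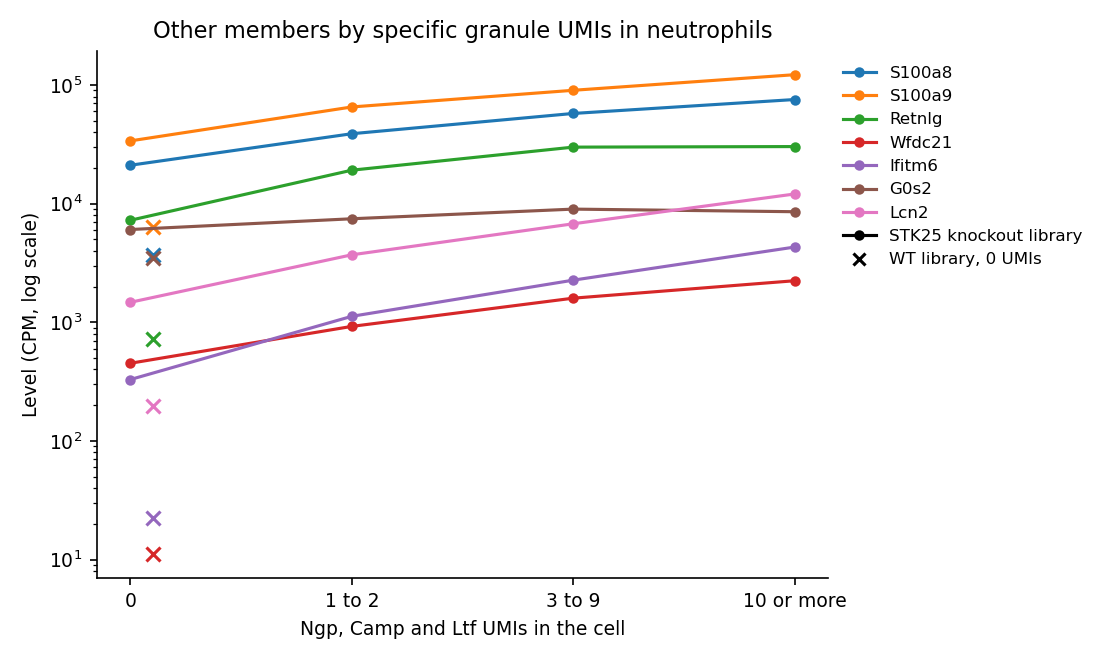
Level of the 7 other members (CPM, log axis) in STK25 knockout neutrophils with 0, 1 to 2, 3 to 9 and 10 or more UMIs of Ngp, Camp and Ltf (x axis; lines join ranges of 1 library), with crosses for WT neutrophils at 0. Lcn2 and Ifitm6 climb through all ranges, while G0s2 stays between 6052 and 8994 CPM.

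Clustering at a finer resolution, still without the members, gave a pair of neutrophil subclusters. Together they held 1638 STK25 knockout and 233 WT cells, a slightly different set from the 1597 and 218 neutrophils above. One, led by Ngp, Retnlg and S100a9, held 947 STK25 knockout and 32 WT cells; the other, led by genes such as Hdc (histidine decarboxylase) and Csf3r, held 691 and 201. The calprotectin ratios were smaller within each subcluster than over all neutrophils. In the Hdc-led cells S100a8 was at 2398 CPM in the STK25 knockout library and 1867 CPM in the WT library (log2 ratio 0.36, interval 0.21 to 0.51), and S100a9 had a log2 ratio of 0.63. Lymphocytes were at 547 and 44.5 CPM of S100a8 and 735 and 63.7 CPM of S100a9. Those levels, a background of each library, were not subtracted from any subcluster ratio. In the Ngp-led cells the ratios were 1.82 for S100a8 (42815 and 12156 CPM) and 1.61 for S100a9. G0s2 turned to −0.22 (−0.33 to −0.10) in the Ngp-led cells and was −0.10 (−0.27 to 0.06) in the Hdc-led cells.

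Some members kept large ratios in both subclusters. Retnlg had a log2 ratio of 2.50 in the Ngp-led cells and 1.91 (1.52 to 2.33) in the Hdc-led cells, and Lcn2 of 2.88 and 1.89. Ngp had 6056 UMIs in STK25 knockout and 1 in WT cells of the Ngp-led subcluster, and 104 and 0 in the Hdc-led subcluster. Ltf had a log2 ratio of 2.20 in the Ngp-led cells and 0.50 (−0.37 to 1.48) in the Hdc-led cells, where 72 and 13 UMIs could not show a difference. Counted at a log2 ratio of at least 1, an alternative added after the data were seen, 9 of 10 members were higher in the Ngp-led cells, against 23.6% of all genes with at least 50 UMIs there. In the Hdc-led cells 5 were higher (Retnlg, Ngp, Lcn2, Wfdc21 and Ifitm6), against 6.69% of such genes, but Wfdc21 (48 and 0 UMIs) and Ifitm6 (39 and 1) were under 50 UMIs, and without them 3 were. In the STK25 knockout library Wfdc21 was at 50.6 CPM in these cells and 14.5 CPM in lymphocytes, and Ifitm6 at 41.1 and 14.5 CPM. This background was not subtracted. The median ratio over genes was 0.14 in the Ngp-led cells and 0.10 in the Hdc-led cells.

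**Figure D3:**
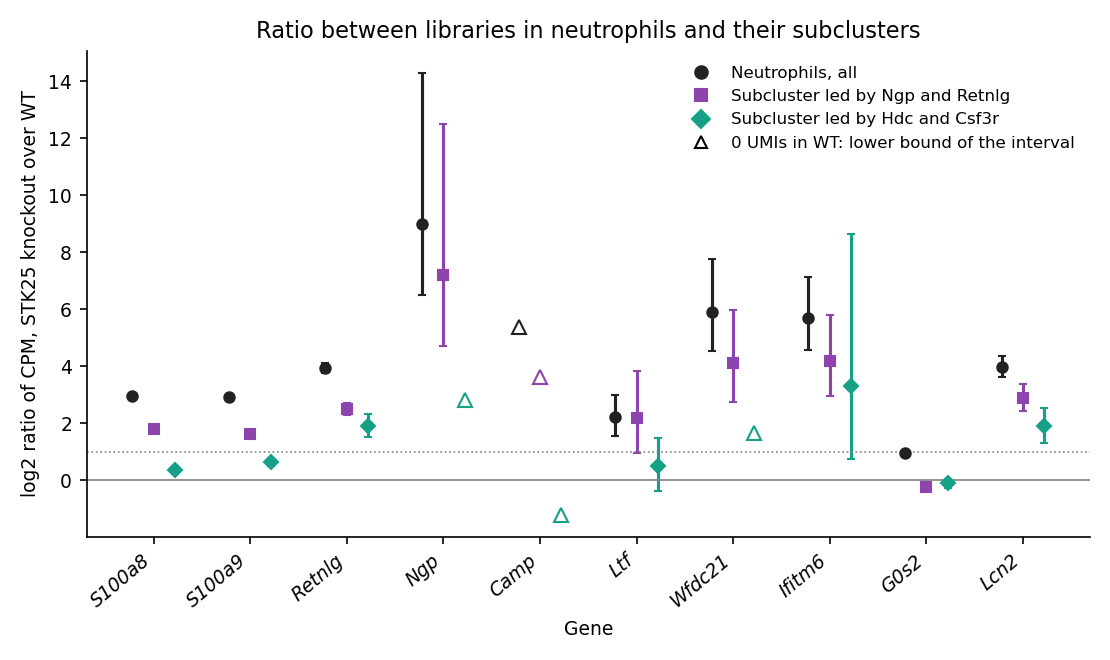
Log2 ratio of CPM, STK25 knockout over WT, for each member (y axis) in all neutrophils (black) and in the subclusters led by Ngp and Retnlg (purple) and by Hdc and Csf3r (green), with exact 95% intervals; open triangles are lower bounds where WT had 0 UMIs. S100a8 stands at 2.96, 1.82 and 0.36, and G0s2 lies at or below 0 in both subclusters.

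Other granule genes were read from lists that were fixed with earlier results of these data known. The 7 azurophil granule genes, among them Mpo, Elane and Prtn3, had 47 UMIs together in STK25 knockout neutrophils and 3 in WT neutrophils, and none reached 50. Of 12 other specific and gelatinase granule genes, 8 had a log2 ratio of at least 1 upwards and 0 downwards, with a median of 1.40. Beside that, 8.93% of all neutrophil genes reached it upwards and 11.1% downwards, with a median of −0.14. Pglyrp1, a peptidoglycan-binding protein, was at 2107 and 631 CPM (log2 ratio 1.74), Lyz2 (lysozyme) at 1454 and 420.5 CPM (1.79), Hp (haptoglobin) at 777 and 186 CPM (2.06) and Mmp9 (gelatinase B) at 545.5 and 265 CPM (1.04). Mmp8 had 960 UMIs in STK25 knockout neutrophils and 2 in WT neutrophils, and Chil3 283 and 0.

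Receptors, oxidase subunits and inflammatory products of neutrophils did not share one direction. Of all neutrophil genes with at least 50 UMIs, 8.93% reached a log2 ratio of 1 upwards and 11.1% downwards. Of 12 receptor genes, 7 were higher by a log2 ratio of at least 1. The 1 lower by as much, Cxcr4 (−1.03), is near the share of all genes. Fpr1, a formyl peptide receptor, had a log2 ratio of 2.46 and Trem1 one of 1.04, while Il1r2, a decoy receptor for interleukin 1, was at −0.95 and Csf3r at −0.52. Among 5 NADPH oxidase genes 2 reached 1, Rac2 (1.70) and Cyba (1.03), with Ncf1 at −0.29. Of 10 inflammatory products 1 reached 1, which is near the share of all genes. It was the chemokine Cxcl2, at 22079 CPM in STK25 knockout neutrophils and 10548 CPM in WT neutrophils (1.07). Il1b was at 0.18, Acod1 at 0.09 and Cxcl3 at 0.98, and the list had a median of 0.13.

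Relatives of the members were mostly higher too. Of 16 such genes with at least 50 UMIs, 10 reached a log2 ratio of 1 upwards and 1, Retnlb, downwards (−1.26), with a median of 1.31, against 8.93% of all neutrophil genes upwards and 11.1% downwards. S100a6 had a log2 ratio of 1.23, S100a11 of 1.38, the protease inhibitor Slpi of 1.60 and Wfdc17 of 3.22. Granulocyte transcription factors had a median of 0.73, with Cebpb at 0.78, Klf2 at 1.17, Spi1 (the PU.1 gene) at 0.73 and Cebpd at 0.70. Cell cycle genes were sparse, at 468 UMIs and 61 UMIs over 6 genes; Top2a was at −1.40, and Mki67 (−0.72), Pcna (−0.60) and Birc5 (−0.36) had intervals that included 0. Of the receptors and targets of member proteins, Cd14 had a log2 ratio of 1.25 and Tlr4, which binds calprotectin, of −0.80, with Ly96 at −0.10 and Pnpla2, the ATGL gene that G0s2 inhibits, at −0.05 (−1.02 to 1.12).

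Over all cells, the number of neutrophils and the level per neutrophil both enter. There, 9 of 10 members had a log2 ratio of at least 1 upwards, against 2.96% of 16729 genes, and 1 member, Ltf, of at least 1 downwards, against 5.94%. The median ratio over these genes was −0.14. S100a8 was at 2029.9 CPM in the STK25 knockout library and 70.4 CPM in the WT library (log2 ratio 4.85), and S100a9 at 3206 and 92.5 CPM (5.11). Lcn2 was at 351 and 132 CPM (1.41), and Ltf at 23.5 and 107 CPM (log2 ratio −2.19, interval −2.27 to −2.11). With neutrophils left out, an alternative added after the data were seen, 8 members reached 1 upwards, against 2.63% of genes, and Lcn2 was at 0.41. Ltf was at −3.66 there, the 1 member past 1 downwards, against 5.79% of genes.

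Neutrophils held most UMIs of all 10 members in the STK25 knockout library. The share was 93.0% for Ngp, 92.9% for Camp, 89.1% for S100a9, 88.8% for Retnlg, 87.0% for S100a8, 85.5% for G0s2, 84.3% for Wfdc21 and 81.4% for Ifitm6, and lower for Ltf (65.7%) and Lcn2 (52.9%). In the WT library neutrophils held 45.7% of S100a8, 57.6% of S100a9 and 61.2% of Retnlg, but 0.438% of Ltf and 1.27% of Lcn2. Lcn2 and Ltf had a second source. Cancer cells, the clusters with epithelial markers, held 36.1% of Lcn2 and 30.6% of Ltf in the STK25 knockout library, and 82.9% and 98.0% in the WT library.

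Calprotectin UMIs were found in every class of cell, and outside neutrophils the class medians were nearly the same within each library. Lymphocytes, which do not express these genes, had 1.00 UMI of S100a8 per cell in the STK25 knockout library and 0.0659 in the WT library, and 1.35 and 0.0943 of S100a9. A UMI of S100a9 was in 65.0% of lymphocytes (62.9% to 67.1%) in the STK25 knockout library and 7.03% (6.37% to 7.73%) in the WT library. All 10 members summed to 3.21 UMIs per lymphocyte (3.14 to 3.29) in the STK25 knockout library and 0.270 (0.256 to 0.284) in the WT library. Retnlg was at 0.374 and 0.00923 UMIs per lymphocyte, and G0s2 at 0.261 and 0.0424. These levels are taken as the background of each library, and a share of cells at or below them is not read as expression. The background also differed between libraries. Of the 9 members with at least 50 UMIs in lymphocytes, 8 had a log2 ratio of at least 1 upwards, against 3.39% of genes. None had one downwards, against 4.15%. Ltf was the exception, with 13 and 37 UMIs. The sizes were not those of neutrophils. Lcn2 had a log2 ratio of 1.11 in lymphocytes and 3.97 in neutrophils, and G0s2 of 2.31 and 0.95.

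In the STK25 knockout library other classes lay close to that background once a few cells were set aside. The median of S100a8 and S100a9 together was 2 UMIs per cell in 9 of the 10 other named classes of the STK25 knockout library, and 1 in plasma cells; in the WT library it was 0 in all 10. Means were pulled up by cells with at least 36 such UMIs, the median of STK25 knockout neutrophils. In the STK25 knockout library 3 of 160 pericytes or smooth muscle cells held 75.9% of that class's calprotectin UMIs, 3 of 809 fibroblasts 52.6%, 15 of 1084 macrophages 46.2% and 30 of 4928 cancer cells 35.8%. Without these cells the means were 2.06 in pericytes or smooth muscle, 2.01 in fibroblasts, 2.46 in macrophages and 2.12 in cancer cells, against 2.18 in B cells and 2.08 in T or NK cells. WT cancer cells stayed higher, at 0.262 without such cells, against 0.134 in WT B cells and 0.147 in WT T or NK cells. Cells were set aside by their own calprotectin count, which lowers these means by construction. Whether such droplets held a neutrophil beside another cell was not tested.

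**Figure D4:**
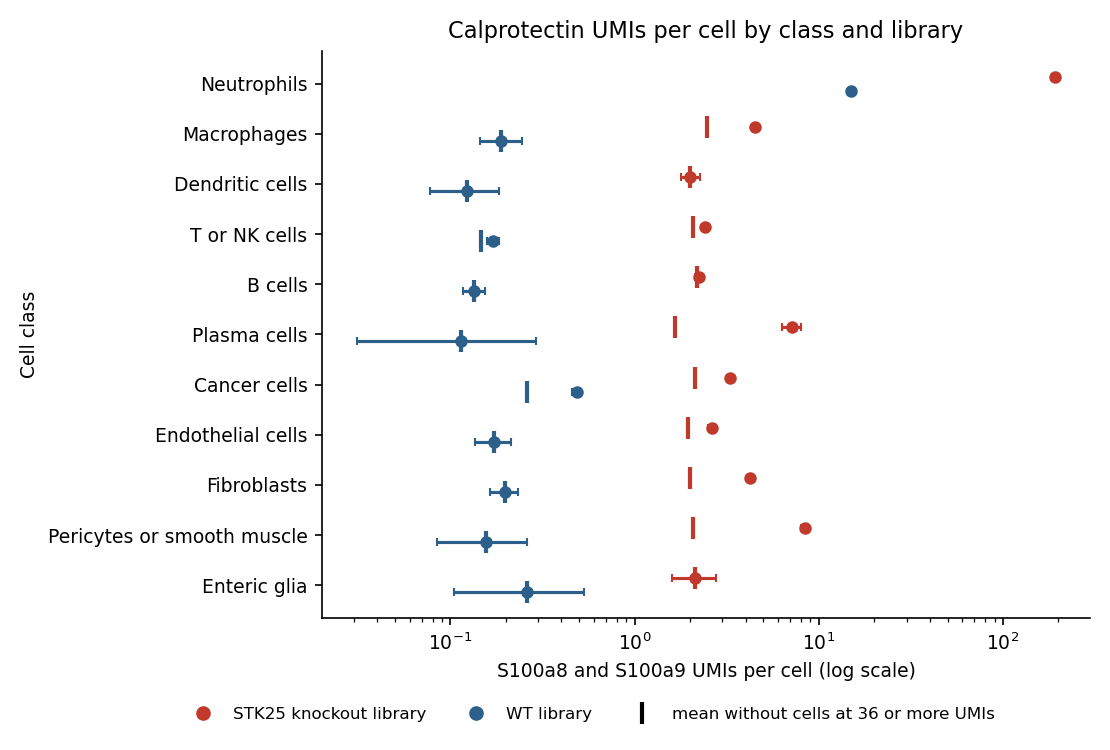
UMIs of S100a8 and S100a9 per cell (x axis, log scale) in each cell class (rows) in the STK25 knockout library (red, upper) and the WT library (blue, lower), with exact 95% Poisson intervals; upright marks show the mean without cells at 36 or more UMIs. Outside neutrophils the marks lie between 1.67 and 2.46 in the STK25 knockout library and between 0.114 and 0.262 in the WT library.

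To see which members other cells carried beyond this background, each member was counted per 100 calprotectin UMIs and set beside the same count in lymphocytes. S100a8 was counted per 100 UMIs of S100a9, and S100a9 per 100 of S100a8. A rise of both subunits together could not be seen this way. In cancer cells 3 members exceeded the lymphocyte count in the STK25 knockout library (Ltf, Lcn2 and Ifitm6) and 4 in the WT library (those and S100a8). Lcn2 stood at 51.5 per 100 in STK25 knockout cancer cells, against 5.42 in lymphocytes, 9.50-fold (8.37 to 10.8), and at 322 in WT cancer cells, against 29.8 in lymphocytes, 10.8-fold (9.27 to 12.6). Ifitm6 in STK25 knockout cancer cells was 1.38-fold (1.03 to 1.89), a call lost with T or NK cells or B cells alone as background and with the strict cell filter. With doublets removed, or without cells high in calprotectin, S100a8 exceeded it in the STK25 knockout library too, and the same 4 members did so in both libraries. In WT cancer cells S100a8 was at 0.288 UMIs per cell, but 6 of 2678 cells held 50% of them.

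Lcn2 was carried mainly by one kind of cancer cell in both libraries. A cluster led by Wnt pathway genes such as Wnt6, Wnt10a, Apcdd1 and Wif1 had 9.88 UMIs of Lcn2 per cell in the STK25 knockout library (700 cells) and 11.7 in the WT library (337 cells). A Lcn2 UMI was in 55.1% and 46.6% of these cells, and at least 10 UMIs in 18.1% and 16.3%. The means rest on few cells, since 26 and 10 cells held 50% of the cluster's Lcn2 UMIs. In other large cancer cell clusters Lcn2 was much lower, for example 0.142 and 0.0534 in the cluster led by the colonocyte genes Aqp8 and Car4. Over all cancer cells Lcn2 had a log2 ratio of −0.00 (−0.06 to 0.05), beside 3.97 in neutrophils. Lcn2 was also above background in the endothelial class, at 0.894 UMIs per cell in the STK25 knockout library and 0.708 in the WT library, 6.28-fold and 13.8-fold by the same measure.

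Cancer cells as a whole had 7 of 10 members at a log2 ratio of at least 1 upwards, against 2.08% of genes, and 1, Ltf, downwards, against 3.02%. By the count per calprotectin UMI, none of the 7 exceeded the lymphocyte background in STK25 knockout cancer cells. S100a8 was an exception under the settings named above. For S100a8 and S100a9, each counted per UMI of the other, a rise of both together could not be seen. The lymphocyte background was itself higher in the STK25 knockout library. Ltf had 474 UMIs in STK25 knockout cancer cells and 4029 in WT cancer cells (log2 ratio −4.08, interval −4.22 to −3.94). Nearly all WT UMIs lay in a cluster led by the keratins Krt13 and Krt14, at 0.461 per cell in the STK25 knockout library (812 cells) and 10.9 in the WT library (365 cells). In that cluster, 5 STK25 knockout cells and 20 WT cells had at least 10 Ltf UMIs, and 2 and 5 cells held 50% of it. The highest WT cell had 637 Ltf UMIs. The same WT cells' cluster held 588 of the 770 S100a8 UMIs of WT cancer cells, of which 3 cells had 50%. At a resolution of 2, a small cancer cell cluster had Psca, Sprr2d and Ltf among its leading genes. It held 2 STK25 knockout and 15 WT cells. The part of such cell numbers in the Ltf ratio was not tested.

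**Figure D5:**
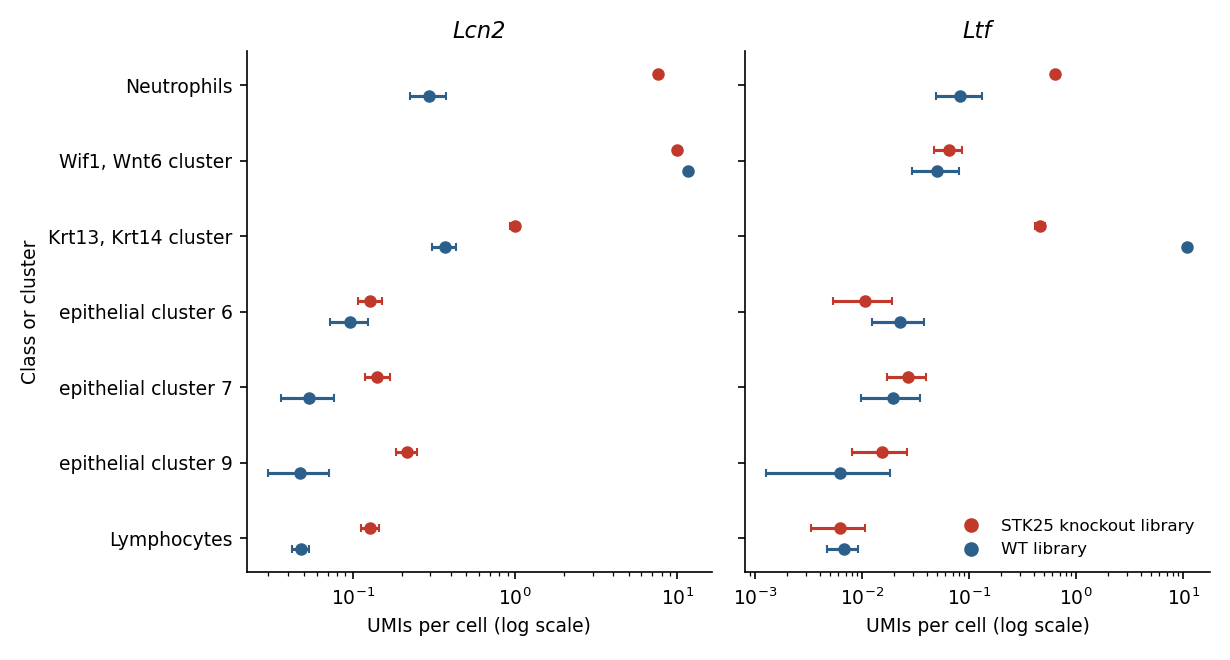
UMIs per cell (x axis, log scale) of Lcn2 (left) and Ltf (right) in neutrophils, 5 cancer cell clusters and lymphocytes (rows), in the STK25 knockout library (red, upper) and the WT library (blue, lower), with exact 95% Poisson intervals. In the Wif1 and Wnt6 cluster Lcn2 is at 9.88 and 11.7, and in the Krt13 and Krt14 cluster Ltf is at 0.461 and 10.9.

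Some myeloid and stromal cells carried a few members beyond the background. Ifitm6 was at 0.957 UMIs per dendritic cell in the STK25 knockout library (141 cells) and 0.353 in the WT library (187 cells), and per 100 calprotectin UMIs it exceeded lymphocytes 42.1-fold and 149-fold. The WT fold rests on 23 calprotectin UMIs in dendritic cells and 17 Ifitm6 UMIs in lymphocytes. In macrophages Ifitm6 was at 0.208 and 0.0379 per cell, 4.05-fold and 10.4-fold. Wfdc21 was above background in STK25 knockout macrophages (0.169 per cell, 3.30-fold; 2.43 to 4.54) and had 0 UMIs in WT macrophages. Lcn2 exceeded lymphocytes in STK25 knockout macrophages (2.62-fold, 2.26 to 3.04) and fibroblasts (1.76-fold, 1.48 to 2.08), while in WT macrophages (0.894-fold) and fibroblasts (1.40-fold) the intervals included 1. G0s2 exceeded lymphocytes in fibroblasts, at 0.651 per cell in the STK25 knockout library and 0.273 in the WT library, 1.39-fold and 5.24-fold.

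Across 20 points (10 classes with at least 30 cells, in each library), the mean profile of the members was highest in STK25 knockout neutrophils and next in WT neutrophils. The members' own Pearson correlations with that mean ran from 0.58 for Ltf and 0.75 for Ifitm6 to 0.97 for S100a8. Each member is part of that mean, which raises its correlation by construction. Of all other genes, the 10 most alike were Mmp8 (0.94), Fpr1 (0.90), Il1f9 (0.87), Wfdc17 (0.87), Cxcl2 (0.86), Stfa2l1 (0.86), Cxcr2 (0.85), Cstdc4 (0.84), Trem1 (0.84) and Hdc (0.83). The points share 2 libraries and their background, so these values describe and do not test. Among the 10 genes, Hdc had a log2 ratio of −0.27 (−0.39 to −0.14) in neutrophils, Il1f9 of 0.37 and Mmp8 of 5.30.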

How the data were processed

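Droplet-based 3′ single-cell RNA sequencing (10x Genomics) was done on 2 libraries, 1 per genotype. The deposited values are unnormalized UMI counts by gene and barcode, which the authors made with Cell Ranger 7.1.0 (file headers) on mm10; the processing notes also name Seurat, not saying what for. The kit version, and whether intronic reads were counted, are not given in the sources used here. No barcode had under 500 UMIs.

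The cell filter asked for 200 or more genes and no more than 25% of UMIs from mitochondrial genes. Counts scaled to 10000 per cell and log-transformed gave 2000 variable genes without the members, 30 principal components, 20 neighbours and Leiden clusters at a resolution of 1, with no batch correction (Python 3.11.15, scanpy 1.11.5, leidenalg 0.10.2, igraph 0.11.9, scipy 1.17.1, numpy 2.4.6, seed 0). A cluster was named for the marker set highest above the median cluster, with at least 3 markers each in 10% of its cells and 5 points above that median, thresholds set after the data were seen. Clusters led by markers of another set stayed unnamed. Doublets stayed in; Scrublet's automatic threshold marked 0% of cells, so as an alternative the highest scores were removed at the expected rate, 1542 cells (STK25 knockout) and 1204 (WT).

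UMIs were summed per class and library. Intervals (95%) are exact: Poisson for levels, Clopper-Pearson for shares, conditional binomial for ratios and conditional odds ratios for counts per calprotectin UMI. With 1 library per group no test was made. A log2 ratio of 1 was counted as large, among genes with at least 50 UMIs. Intervals were tested on simulated counts. Named genes were the members, the 10 genes most alike (log2 of CPM plus 1) and the 4 with most UMIs of each list; Mmp8, Chil3, Cd177, Cebpe, Cxcr4, Retnlb, Elane and genes leading clusters were named after their values were seen, and 1 gene under this rule is not reported here. Members and lists were chosen with earlier results of these data known. Alternatives were another resolution (0.5, 2), cell filter (none; 500 genes and 10%), doublet removal, members in the clustering, neutrophils by 3 markers without clustering, other scalings, and thinning to 500 UMIs.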

Additional observations from a re-analysis of the deposited data

Results flagged for a closer look

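Ltf had opposite directions in 2 kinds of cell. Its log2 ratio, STK25 knockout over WT, was −4.08 (−4.22 to −3.94) in cancer cells and 2.22 (1.55 to 2.98) in neutrophils. The difference between these ratios was not tested, since each genotype had 1 library, and 5 cells held 50% of the Ltf UMIs of WT cancer cells. Of those 4029 UMIs, 3980 lay in the cluster led by Krt13 and Krt14. The class of cancer cells took in every cluster with epithelial markers. Whether the Ltf-bearing cells were tumour cells was not tested. WT neutrophils had 18 Ltf UMIs, 9 of them in 2 cells without a UMI of any other member.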

How the results depend on the processing

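The 90 log2 ratios of the 10 members within neutrophils under settings listed at the start were above 0, with G0s2 between 0.93 and 1.66, S100a8 between 2.86 and 3.43 and Ltf between 2.09 and 3.24. Of 23 more in parts of the neutrophils, chosen after seeing the data and only for members with a WT UMI, 21 were above 0; G0s2 turned to −0.22 in the Ngp-led and −0.10 in the Hdc-led subcluster, and was 0.79 without Ngp, Camp or Ltf UMIs. The count of members at a log2 ratio of 1 or more was 9 or 10 in neutrophils under each of those settings that counted 10 members, 6 of 7 without Ngp, Camp or Ltf UMIs, and 5 in the Hdc-led subcluster alone (3 with at least 50 UMIs). Of 227 alternative values, 159 stayed within the counting interval or, for counts of members, within 1.5 times, 66 moved and 2 turned, both of G0s2. The members' share of neutrophil UMIs was 11.4% in the STK25 knockout library with the members in the clustering and 11.4% with no cell filter. It was 11.2% and 1.52% (STK25 knockout and WT) at a resolution of 2, 11.96% and 1.76% with the strict cell filter, 13.1% and 1.66% with doublets removed, 8.46% and 0.797% with neutrophils taken by markers, and 7.90% and 1.15% thinned to 500 UMIs. Member UMIs per lymphocyte were 3.33 and 0.284 with the strict filter, 2.81 and 0.249 with doublets removed, 0.997 and 0.101 thinned, and 2.89 and 0.251 without lymphocytes high in calprotectin. With neutrophils by markers, 18.6% of STK25 knockout neutrophils had a specific granule UMI, and 7.71% and 0% (WT) had at least 3. Thinned, 10.3% and 0.917% had at least 1 and 4.07% and 0% at least 3. By construction thinning lowers counts; the cause of the other moves was not tested. Removing cell barcodes found in both libraries, also chosen after seeing the data, like leaving out cells high in calprotectin, left these values within their intervals. No paired analysis was possible because each genotype had 1 library. Depth limits what can be said of WT neutrophils, which were 218 cells.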

Other observations

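In the STK25 knockout library, 1 droplet of the 31 cells of an enteroendocrine-gene cluster (led by Ppy, Pcsk1n and Chga) held 491 S100a8 UMIs, 91.6% of that cluster's S100a8. Clustered with the members included, neutrophils gave a further cluster led by Ngp, Camp and Ifitm6 with 333 STK25 knockout cells and 0 WT cells. The members helped to define that cluster and were selected on their levels in these libraries. Its cell numbers are therefore not separate evidence. Among lymphocytes, S100a9 came to 134 UMIs per 100 of S100a8 in the STK25 knockout library, against 162 in neutrophils of that library.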
